A study of Mus musculus with 20 samples.

Results

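Promoter flanking regions that were transcribed in wild-type SIMS cells, an epithelial line from the mouse salivary gland, are described here. A region was kept when its mean count over wild-type replicates 2, 3 and 4 was at least 10, which gave 10885 of the 88425 annotated regions (12.3%). The wild-type counts chose the regions, so every comparison with wild type below shares values with that choice. Comparisons between the Zcchc8 KO clones and Btbd7 KO, and among the clones, use libraries that the choice did not use. RNA sequencing of total RNA covered 5 groups, all grown in DMEM with 10% FBS: unedited wild type (n = 3 libraries in the region table), a Btbd7 KO made with CRISPR/Cas9 and labelled as the negative control (n = 4), and 3 Cas9-made Zcchc8 KO clones (n = 4 each). Each Zcchc8 KO group is 1 clone, so a difference shown by a single clone cannot be told apart from a trait of that clone. Btbd7 KO is likewise 1 edited group. A difference of the clones from it alone cannot be told apart from a trait of that group. The labels do not say whether replicates were separate cultures, and the p-values therefore measure only the spread between these libraries within their groups. The p-values of the clone mean leave out the spread between the 3 clones.

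ZCCHC8 is the scaffold of the nuclear exosome targeting complex, in which the RNA-binding protein RBM7 and the helicase MTREX hand short, capped and mostly unprocessed transcripts to the RNA exosome for decay. Among its known substrates are PROMPTs, the upstream transcripts that leave many active promoters in the direction opposite to the gene, and enhancer RNAs. A promoter flanking region is a stretch of regulatory DNA beside a promoter, defined by chromatin marks, and its RNA can come from such upstream transcripts, from the first exon or intron of the neighbouring gene, or from both. BTBD7 has its best known role in branching of the embryonic salivary gland.

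The files name each region by a regulatory identifier and give no position, so no sequence could be printed for the regions themselves. Some regions had nearly the same counts, library by library, as the PROMPT row of a gene in a companion table, which links them to that gene by number of reads and not by location. The 2 promoters below belong to genes linked in this way to regions that were higher in the Zcchc8 KO clones, while other matched regions were not. They run 5′ to 3′ on the gene's strand from RefSeq (GRCm38.p6), and the capitals mark the 50 bases from the transcription start. The Cdk2ap2 promoter lies at chr19:4097101-4097400 on the plus strand and the Zfp995 promoter at chr17:21909877-21910176 on the minus strand.
Cdk2ap2: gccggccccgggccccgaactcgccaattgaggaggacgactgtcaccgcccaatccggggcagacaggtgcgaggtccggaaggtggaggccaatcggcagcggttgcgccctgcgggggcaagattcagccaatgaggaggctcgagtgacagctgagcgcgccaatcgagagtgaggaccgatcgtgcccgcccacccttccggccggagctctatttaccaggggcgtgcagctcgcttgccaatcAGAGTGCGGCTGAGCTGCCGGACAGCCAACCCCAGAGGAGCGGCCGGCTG
Zfp995: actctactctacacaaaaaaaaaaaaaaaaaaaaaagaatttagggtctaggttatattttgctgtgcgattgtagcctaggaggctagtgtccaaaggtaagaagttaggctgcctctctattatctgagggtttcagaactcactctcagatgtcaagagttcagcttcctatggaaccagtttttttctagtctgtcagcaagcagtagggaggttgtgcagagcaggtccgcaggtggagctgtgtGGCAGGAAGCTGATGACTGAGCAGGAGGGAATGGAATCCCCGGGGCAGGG
The Cdk2ap2 stretch was 67.7% G and C with 28 CpG, and the Zfp995 stretch 46% with 3 CpG, against medians of 52.7% and 7 over 32851 RefSeq promoters of the same length. Both strands were searched for the polyadenylation hexamer AATAAA and the splice donor-like string GGTAAG, which occur in 19.6% and 9.67% of those promoters. Neither string was in the Cdk2ap2 window, and the Zfp995 window held GGTAAG 1 time on the gene's strand.

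ENSMUSR00000716705 had the closest such match to a PROMPT row, that of Ppp4r1 (ENSMUSG00000061950.17, a protein-coding gene for a phosphatase regulatory subunit, GRCm38 chromosome 17, 65782573 to 65841926, plus strand). The counts of the region and of the PROMPT row were equal in 18 of 19 libraries and differed by 1 count of 1279 in all. The region was at 0.984, 1.94 and 1.17 CPM (counts scaled to the depth of the gene table) in wild type and at 0.964, 0.796, 1.36 and 1.18 in Btbd7 KO. It stood at 9.9, 11.9, 8.69 and 11.1 in clone 1, at 8.5, 10, 9.35 and 10.6 in clone 2, and at 5.84, 9.67, 8.29 and 7.36 in clone 3. All 12 clone libraries lay above all 7 control libraries. The clone mean was higher than Btbd7 KO by 3.13 on the log2 scale (edgeR quasi-likelihood test, adjusted p = 2.08e-21), and than wild type by 2.77 (SE 0.24, adjusted p = 2.92e-17). ENSMUSR00000263702, which differed from the Cdk2ap2 PROMPT row by 4.85% of counts, was higher than Btbd7 KO by 1.59 (adjusted p = 2.24e-05). ENSMUSR00000234797, which differed from the Zfp995 row by 4.17%, was higher by 0.85 (adjusted p = 1.88e-05). In both, clone and control libraries overlapped. ENSMUSR00000263702 was at 0.422 to 3.11 CPM in the controls and 1.88 to 4.97 in the clones, and ENSMUSR00000234797 at 4.09 to 6.83 and 6.16 to 15.7. Cdk2ap2 codes for a partner of the cell cycle kinase CDK2 and Zfp995 for a zinc finger protein. These regions were singled out after their values were seen, and other regions with a close count match did not rise. ENSMUSR00000544329 was at 68 to 72.3 CPM in wild type, 59.2 to 67.5 in Btbd7 KO and 60.9 to 68.4 in the clones. ENSMUSR00000124775 was at 69 to 112 CPM in wild type, 79.3 to 93.6 in Btbd7 KO and 49.2 to 72.8 in the clones. No region had counts equal to a gene or PROMPT row in all libraries, 27 came within 5% of a PROMPT row and 55 within 5% of a gene row. At high counts such a match can arise between unrelated rows with steady levels.

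The label check and the depth bear on what follows. Gene means and gene tests used all 20 libraries, with wild-type replicate 1 included. Btbd7 RNA was at 202 CPM in wild type and 99.2 in Btbd7 KO, a log2 change of -1.03 (edgeR adjusted p = 2.80e-12). Zcchc8 RNA was at 65.1 CPM in wild type, 62.3 in Btbd7 KO, 60.3 in clone 1 (adjusted p = 0.291), 23.3 in clone 2 (5.19e-13) and 54.6 in clone 3 (0.0135), so its level did not set clone 1 apart from wild type. Over the 19 libraries with region counts, gene totals ran from 6833258 to 17771804 counts, and the 4 clone 1 libraries were all among the shallow ones (6833258 to 7683444). The defining keratins and junction genes of simple epithelium were high in every group (7 markers, summed level 3105 to 5048 CPM), while the acinar markers Smgc and Muc19 were at 0. The 6 acinar markers together, nearly all of them Aqp5, summed to 167 to 190 CPM in wild type, 109 to 115 in Btbd7 KO, and 136 to 164, 127 to 155 and 115 to 124 in clones 1, 2 and 3. The 3 basal markers, most of them Krt14, summed to 253 to 398, 400 to 421, 164 to 214, 277 to 346 and 194 to 225 CPM in the same order. The 7 markers of leukocytes, endothelium, fibroblasts and neurons summed to 10.7 to 17.9 CPM in wild type, 20.4 to 32.5 in Btbd7 KO, and 9.61 to 12.9, 24.1 to 27.4 and 21.4 to 25.7 in clones 1, 2 and 3. Col1a1 carried most of that last sum, while Col3a1 went from 3.15 CPM in wild type to 0.165, 0.0688 and 0.894 in clones 1, 2 and 3. Among basal markers, Trp63 was at 2.43 CPM in wild type and 1.47, 20.7 and 4 in the clones. Krt7, Krt8 and Krt18 were lower in the clone mean than in wild type (log2 changes -0.589, -0.376 and -0.463). Krt19, Cdh1, Epcam and Cldn4 were not called in that mean, but single clones differed. Krt19 was at 229 CPM in wild type and 180, 346 and 154 in clones 1, 2 and 3 (edgeR adjusted p = 0.0152, 0.000128 and 0.00028). Cdh1 was called in clones 2 and 3 (0.0112 and 0.0125) and Cldn4 in clone 1 (0.00132). Krt8 was not called in clone 2 (0.556). The part of all these marker shifts in the results was not tested. Between replicates, chi-square per degree of freedom was highest in wild type, at 4.02 to 6.56 against 2.15 to 3.65 elsewhere. By mean correlation with their own group, clone 1 libraries (0.9203 to 0.9312) were no more alike than wild-type ones (0.9258 to 0.9341). Btbd7 KO and clones 2 and 3 lay higher, at 0.9367 to 0.9544. The groups differed in depth, and its part in these values was not tested.

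The regions held 95.8% of all counts in the promoter flanking table, and their levels were very uneven. The median wild-type mean was 37 counts and the highest 21628, 3124 regions were under 20, and the 100 most abundant took 21.5% of the counts. For each 1000 gene counts, the regions together held 83.6 ± 1.27 counts in wild type (SD, n = 3) and 80.6 ± 1.53 in Btbd7 KO (n = 4). Scaled to raw gene totals, the clones held more, with 88.5 ± 1.56, 88.7 ± 1.88 and 89.4 ± 2.43 (n = 4 each). On that scale the lowest clone library, at 86.5, lay above the highest control library, at 84.8. With TMM-scaled gene totals, as used for all CPM values, the groups overlapped: wild type lay at 85.4 to 86.9, Btbd7 KO at 81.9 to 85.4 and clones 1, 2 and 3 at 85.7 to 88.8, 84.9 to 87.9 and 85.7 to 89.3. No test was run on this sum, because it is a score over regions chosen with wild-type counts.

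**Figure D1:**
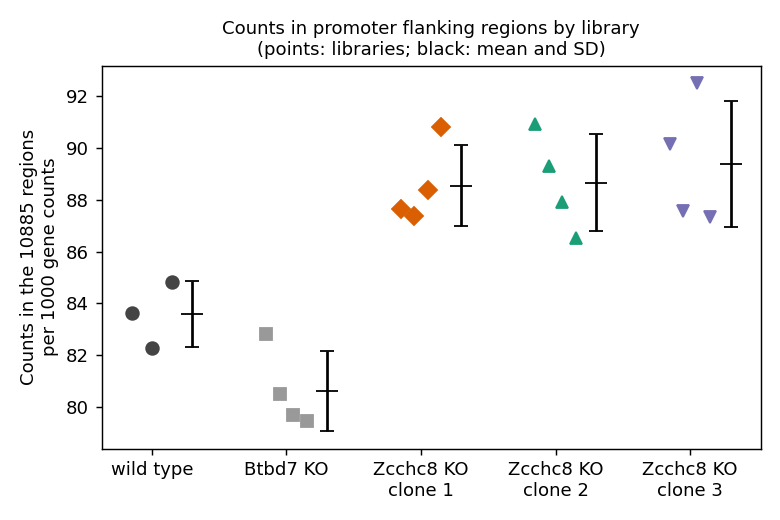
Counts in the 10885 regions per 1000 raw gene counts, without TMM factors (y axis), in each of 19 libraries, by group (x axis), with the group mean and SD in black. Wild type and Btbd7 KO lie between 79.5 and 84.8 and the 12 Zcchc8 KO libraries between 86.5 and 92.5.

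Against Btbd7 KO, which had no part in the choice, more regions rose than fell in the Zcchc8 KO clones. Of the 10816 regions that passed the count filter, 1585 were higher in the clone mean (14.7%, against 16.5% of all 14082 tested regions of the table) and 635 lower (5.87%, against 4.69%). The median log2 fold change was 0.14, against 0.21 over all tested regions. It was 0.0822 with regions chosen by Btbd7 KO counts, a choice that favours regions with a chance-high Btbd7 KO. Taken singly, clone 1 had 1268 higher and 612 lower (backgrounds 13.5% and 4.5%), clone 2 had 1353 and 518 (14.1% and 3.86%), and clone 3 had 1326 and 384 (13.8% and 2.81%). The shares of rising regions were below the backgrounds, but the backgrounds include 3266 tested regions under 10 wild-type counts. Of those, 22.8% were higher and 0.796% lower in the clone mean. Such regions could pass the count filter through the clones where they are high, so the comparison with the backgrounds cannot show a smaller rise. The split depended on the scaling: 71.4% of calls in the clone mean were increases with gene-table factors, 80.5% without TMM factors and 40.8% when TMM factors came from the region table itself. In that last setting, which centres the class, 979 were higher and 1418 lower and the median moved from 0.14 to -0.06. Increases made up 67.4%, 72.3% and 77.5% of calls in clones 1, 2 and 3, and 40.5%, 46.7% and 44.5% with the region table's own factors.

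Against wild type, clone 1 had 710 regions higher and 450 lower (backgrounds 9.49% and 3.22%), clone 2 had 669 and 341 (8.97% and 2.46%), and clone 3 had 748 and 320 (9.61% and 2.29%). The clone mean had 785 higher and 425 lower (10.6% and 3.02%), of which 64.9% were higher, 79.3% without TMM factors and 42.6% with the region table's own factors. Btbd7 KO had far fewer calls, 73 higher and 151 lower (backgrounds 0.66% and 1.09%). The medians were -0.02, 0.03 and 0.05 for the clones, 0.000965 for the clone mean and -0.12 for Btbd7 KO. Choosing by wild-type counts favours regions with a chance-high wild type. With regions chosen by Btbd7 KO counts instead, the medians were 0.0125, 0.0558 and 0.0814 for the clones and -0.045 for Btbd7 KO. Increases made up 61.2%, 66.2% and 70% of the calls in clones 1, 2 and 3, 72.1%, 79% and 80.1% without TMM factors, and 42.1%, 49.9% and 48.6% with the region table's own factors. For Btbd7 KO they made up 32.6%, or 60.8% with the region table's own factors. Some Btbd7 KO counts rested on single libraries. The higher count fell to 44 without wild-type replicate 2, 47 without wild-type replicate 4 and 45 without Btbd7 KO replicate 1, and the lower count fell to 88, 95 and 95 without wild-type replicate 4, Btbd7 KO replicate 2 and Btbd7 KO replicate 4.

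**Figure D2:**
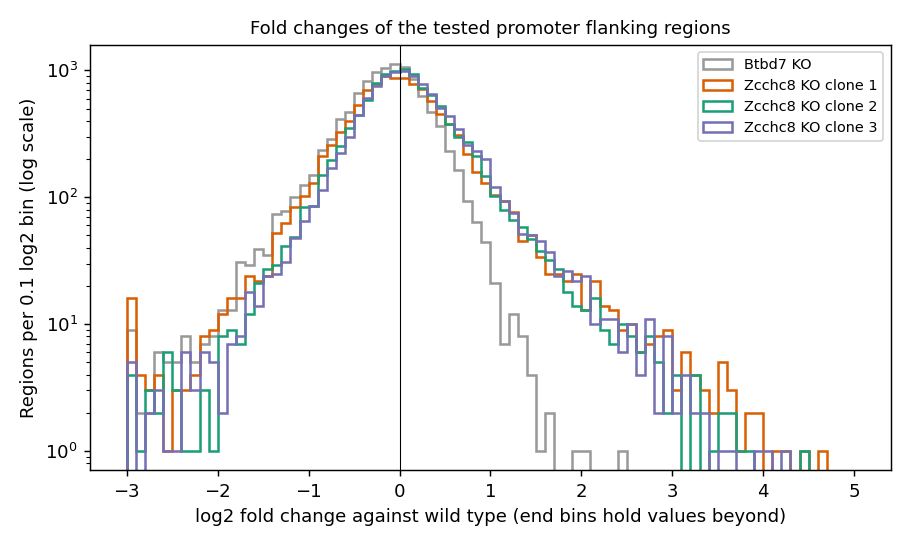
Number of tested regions (y axis, log scale) by log2 fold change against wild type (x axis, bins of 0.1) for each knockout. Above a log2 fold change of 1 lie 648, 585 and 657 regions in Zcchc8 KO clones 1, 2 and 3 and 58 in Btbd7 KO, and below -1 lie 470, 311 and 274 in the clones and 594 in Btbd7 KO, whether or not they passed the test.

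The 3 clones share their wild-type controls. Of 10816 tested regions, 374 were called higher in each clone (background 768 of 14082, 5.45%) and 62 lower in each (62 of 14082, 0.44%). Of these, 314 and 34 were also called in each clone against Btbd7 KO (backgrounds 4.27% and 0.241%). The median log2 change over the clones was 1.60 for the 374 and -0.57 for the 62, but the sets lay at different wild-type levels, so these sizes are not matched. Clone 1 had the largest change at 207 of the 374, clone 3 at 108 and clone 2 at 59, beside 416, 206 and 146 of 768 over all tested regions. All 12 clone libraries lay above all 7 control libraries at 322 regions (background 4.07%) and below them at 47 (0.334%). The 62 depended on scaling: 34 were called without TMM factors and 140 with the region table's own factors.

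Direction varied with the level in wild type. In the clone mean against Btbd7 KO, 11.3% of the 3055 regions with 10 to under 20 wild-type counts were higher and 0.949% lower, at a median log2 change of 0.29. At 50 to under 100 counts, 18.2% were higher and 4.94% lower. Of the 490 regions at 500 or more, 14.5% were higher and 35.3% lower, with a median of -0.09. The size of the called increases shrank in the same order, from a median of 1.62 in the lowest class to 0.31 in the highest. That of the called decreases shrank too, from -1.41 to -0.37. At 100 to under 500 counts the medians were 0.57 and -0.46. Small changes are called more readily at high counts, and none of the 62 shared decreases was in a region under 100 wild-type counts.

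**Figure D3:**
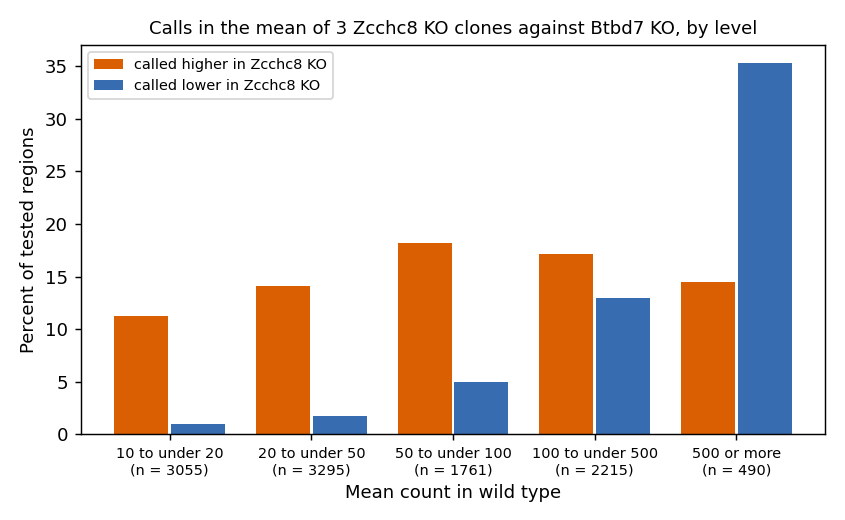
Percent of tested regions called higher (orange) or lower (blue) in the mean of the 3 Zcchc8 KO clones against Btbd7 KO (y axis), by mean wild-type count (x axis, with the number of regions). The share called lower runs from 0.949% to 35.3%, while the share called higher stays between 11.3% and 18.2%.

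The regions with the largest rises in all 3 clones were low in both control lines. The 10 with the largest change against Btbd7 KO, of 212 that qualified, are described. They were chosen for calls and size in these same comparisons. Their separation from the controls and their small p-values follow in part from that choice. Of the 374 regions higher in each clone, 76 had a mean of 100 to under 500 wild-type counts and 8 of 500 or more. ENSMUSR00000717406 had the largest change. It was at 1.5, 1.94 and 3.69 CPM in wild type and at 2.47, 1.79, 1.61 and 1.69 in Btbd7 KO. It reached 49.7, 41.7, 46.8 and 37.3 CPM in clone 1, 23, 26.4, 33.4 and 27.3 in clone 2, and 34.5, 35.3, 37 and 38.8 in clone 3. Every clone library was above every control library, and clone 1 lay highest. The clone mean exceeded Btbd7 KO by 4.18 on the log2 scale (SE 0.16, edgeR adjusted p = 9.48e-42). Its level was unequal among clones (joint test, adjusted p = 0.000354).

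ENSMUSR00000170242 rose evenly. It was at 1.33, 0.822 and 1.17 CPM in wild type and at 2.17, 1.59, 1.61 and 1.35 in Btbd7 KO, against 27.9, 24.9, 23.2 and 25.3 in clone 1. Clone 2 had 23.3, 26.6, 26.4 and 21.8 CPM and clone 3 had 20.9, 20.6, 19.9 and 22.2. The log2 change against Btbd7 KO was 3.77 (SE 0.16, adjusted p = 9.29e-38), and the joint test among the clones gave an adjusted p of 0.395.

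ENSMUSR00000008146 was the most abundant of the 10. Its wild-type libraries had 8.39, 6.35 and 7.15 CPM and its Btbd7 KO libraries 5.97, 5.31, 5.96 and 5.49. Clone 1 had 103, 93.4, 80.3 and 85.7 CPM, clone 2 had 52.8, 52.7, 52.4 and 60.9, and clone 3 had 62.1, 60.5, 67.3 and 70.7. No clone library overlapped a control, and no clone 1 library overlapped another clone (joint test, adjusted p = 1.19e-08). The change against Btbd7 KO was 3.60 (SE 0.11, adjusted p = 4.36e-50). ENSMUSR00000008162, whose identifier lies close by in number, had 3.72 ± 0.245 CPM in wild type (SD, n = 3) and 3.75 ± 0.964 in Btbd7 KO (n = 4). It had 58.8 ± 4.41, 45.7 ± 3.01 and 46.2 ± 5.48 in clones 1, 2 and 3 (n = 4 each).

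The other 6 rising regions showed the same separation of clones and controls. ENSMUSR00000361113, ENSMUSR00000573828, ENSMUSR00000017524, ENSMUSR00000003809, ENSMUSR00000016969 and ENSMUSR00000209947 had control libraries between 0.0845 and 4.05 CPM and clone libraries between 3.97 and 33.3. Their log2 changes against Btbd7 KO ran from 3.52 (ENSMUSR00000209947, SE 0.23) to 4.11 (ENSMUSR00000361113, SE 0.32). In none of the 6 did a clone library overlap a control. ENSMUSR00000361113 rested on few control counts and went from 3.80 to 5.02 when single Btbd7 KO libraries were left out.

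Regions called lower in all 3 clones had at least 100 wild-type counts, so their changes are not matched in level to the rises above. The 6 with the lowest change, of 43 that qualified, are described. They were chosen in the same way as the rises, so their separation from the controls follows in part from the choice. ENSMUSR00000267905 was at 6.19, 6.73 and 6.92 CPM in wild type and at 9.04, 10.6, 9.93 and 9.12 in Btbd7 KO. It had 1.3, 0.542, 0 and 1.02 CPM in clone 1, 2.19, 2.85, 3.37 and 1.66 in clone 2, and 2.63, 4.27, 3.19 and 3.54 in clone 3. All clone libraries were below all controls, and clone 1 lay lowest. The change against Btbd7 KO was -2.38 (SE 0.20, adjusted p = 1.17e-17), and the clones differed (adjusted p = 1.76e-05).

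ENSMUSR00000560947 was far more abundant. Wild type had 105, 116 and 101 CPM and Btbd7 KO 118, 117, 118 and 110. Clone 1 had 59.5, 60.4, 64.6 and 59.6 CPM, clone 2 had 62.4, 62, 59.1 and 61.7, and clone 3 had 92.4, 91.9, 78.5 and 78.8. All clones lay below the controls, clone 3 least so, and the change against Btbd7 KO was -0.76 (SE 0.06, adjusted p = 1.24e-18). ENSMUSR00000715324, ENSMUSR00000144879, ENSMUSR00000040224 and ENSMUSR00000618345 fell by between 0.75 and 0.80 on the log2 scale. Clone and control libraries did not overlap in the first 3. In ENSMUSR00000618345 they did, with clones up to 55.6 CPM and controls from 49.

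**Figure D4:**
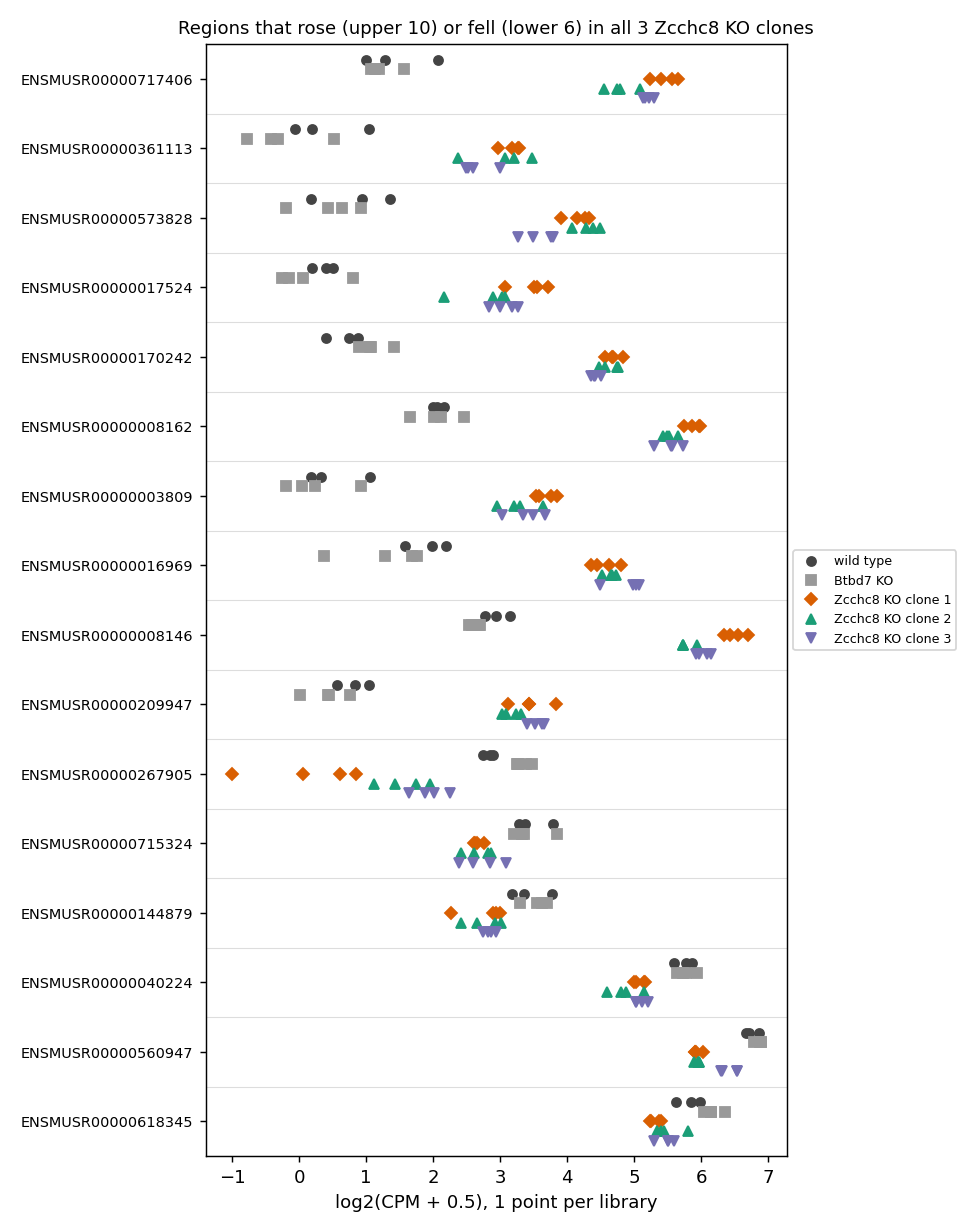
Level of the 10 regions that rose and the 6 that fell in all 3 Zcchc8 KO clones (y axis) as log2(CPM + 0.5) (x axis), 1 point per library, by group. The rising regions lie to the right of both control groups in every clone library, from 23 to 49.7 CPM against 1.5 to 3.69 for ENSMUSR00000717406.

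The 5 most abundant regions changed little or fell. ENSMUSR00000610676, the highest, had 1297, 1402 and 1391 CPM in wild type and 1332, 1345, 1254 and 1233 in Btbd7 KO. The clone means were 1524 ± 101, 1323 ± 51.8 and 1393 ± 96.5 CPM (SD, n = 4 each), and the groups overlapped. Its change against Btbd7 KO was 0.13 (adjusted p = 0.00478), which turned to -0.07 with the region table's own factors and lost its call without Btbd7 KO replicate 4 (0.11, adjusted p = 0.0528). ENSMUSR00000035047 was at 565 ± 108 CPM in wild type (n = 3) and 582 ± 48.3 in Btbd7 KO, and at 364 ± 54.7, 355 ± 41.3 and 397 ± 56.6 in the clones (n = 4 each). It was lower than Btbd7 KO by 0.65 (log2 change -0.65, adjusted p = 1.51e-16), and no clone library reached the lowest control, at 496 CPM.

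ENSMUSR00000682732 fell in 2 clones. It was at 653 ± 41.3 CPM in wild type (SD, n = 3), 597 ± 23 in Btbd7 KO, 429 ± 31.1 in clone 1, 584 ± 52.5 in clone 2 and 390 ± 17.1 in clone 3 (n = 4 each). Clone 2 overlapped the controls and clones 1 and 3 did not (joint test, adjusted p = 3.28e-15). ENSMUSR00000607335 and ENSMUSR00000713939 did not pass the test against Btbd7 KO (log2 changes -0.04 and -0.01, adjusted p = 0.511 and 0.953). The first was at 565 to 724 CPM in the clones and 602 to 664 in the controls, and the second at 447 to 627 and 529 to 643.

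The clones differed from one another at 933 regions (8.63%, background 7.44%; edgeR joint test). The highest clone was clone 1 at 328 of them, clone 2 at 340 and clone 3 at 265. The range over the clones had a median of 0.83 on the log2 scale and exceeded 1 at 356 regions and 2 at 91. Of the 374 regions higher in each clone, 87 also differed among clones, beside 119 of 768 over all tested regions. Called higher in 1 clone and lower in another were 32 regions, beside 33 of all 14082 tested.

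ENSMUSR00000496199 had the lowest joint p of those not yet described. It was at 5.55, 9.72 and 9.44 CPM in wild type and at 4.76, 4.91, 7.32 and 7.35 in Btbd7 KO. Clone 1 had 153, 161, 138 and 161 CPM, clone 2 had 27.7, 25.4, 23 and 25.8, and clone 3 had 50.5, 44.2, 60 and 72.4. The clones rose in all libraries but to 3 separate levels (adjusted p = 3.27e-35). ENSMUSR00000587611 went in both directions. It was at 6.65, 3.74 and 7.45 CPM in wild type, 6.45, 8.03, 8.44 and 9.29 in Btbd7 KO, and 28.4, 17, 19.5 and 21.9 in clone 2. Clone 1 had 2.73, 3.93, 1.74 and 2.67 CPM and clone 3 had 2.06, 1.51, 2.29 and 3, so that clone 2 alone lay above the controls (adjusted p = 7.48e-27).

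ENSMUSR00000038700 and ENSMUSR00000038705, close in identifier number, shared a pattern that set Btbd7 KO and clone 3 apart from the rest. The first was at 199 ± 6.48 CPM in wild type (SD, n = 3), 161 ± 12.4 in clone 1 and 134 ± 6.63 in clone 2, but at 71.4 ± 6.63 in Btbd7 KO and 58.3 ± 1.32 in clone 3 (n = 4 each). The second was at 218 ± 12 CPM in wild type (n = 3), 159 ± 14.4 and 140 ± 8.74 in clones 1 and 2, 73.3 ± 7.91 in Btbd7 KO and 65.9 ± 1.83 in clone 3 (n = 4 each). Against wild type, Btbd7 KO was lower by 1.48 and 1.57 and clone 3 by 1.77 and 1.73 (log2 changes -1.48, -1.57, -1.77 and -1.73).

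Btbd7 KO changed few regions against wild type, and 4 are described. ENSMUSR00000619315 was at 12.6, 10.1 and 7.39 CPM in wild type and at 1.69, 2.39, 2.11 and 0.845 in Btbd7 KO, a log2 change of -2.51 (SE 0.24, adjusted p = 4.36e-14). Clone 2 had 34.1, 29.7, 22.8 and 22.7 CPM, clone 1 overlapped wild type at 4.56 to 11.9, and clone 3 lay between 2.89 and 4.33. ENSMUSR00000326324 fell from 6.49 ± 2.21 CPM in wild type (SD, n = 3) to 1.47 ± 0.697 in Btbd7 KO (n = 4), and the clone means were 8.7, 5.24 and 4.6. ENSMUSR00000548442 rose from 3.72 ± 0.561 CPM (n = 3) to 8.96 ± 0.799 in Btbd7 KO (n = 4), with clone means of 3.35, 7.81 and 1.02. ENSMUSR00000079190 was at 3.82, 3.44 and 0.645 CPM in wild type and 5.32 to 7.57 in Btbd7 KO (log2 change 1.35, adjusted p = 0.00234). The clones were at 6.88 ± 2.23, 5.7 ± 2.22 and 6.97 ± 0.756 CPM (SD, n = 4 each), higher than wild type by 1.33 (adjusted p = 2.44e-05) and with a change of -0.02 against Btbd7 KO (adjusted p = 0.968). The Btbd7 KO call was lost without wild-type replicate 4 (0.87, adjusted p = 0.0933) and in DESeq2 (adjusted p = 0.0692).

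**Figure D5:**
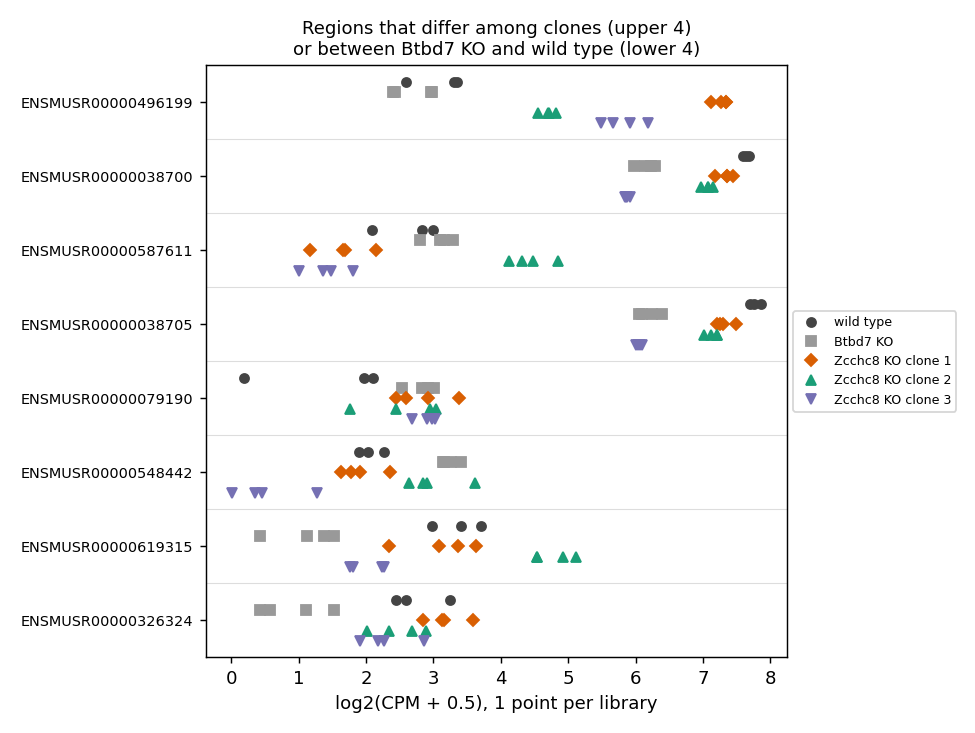
Level of the 4 regions with the lowest joint clone p and the 2 highest and 2 lowest called changes in Btbd7 KO among regions with a mean of at least 50 counts (y axis) as log2(CPM + 0.5) (x axis), 1 point per library, by group. The clones form separate clusters, as in ENSMUSR00000496199, where clone 1 lies at 138 to 161 CPM and clone 2 at 23 to 27.7.

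Regions just inside the count threshold were low everywhere. ENSMUSR00000005800 and ENSMUSR00000006243 had a wild-type mean of 10 counts, at 0 to 1.51 CPM over all libraries. ENSMUSR00000009117 and ENSMUSR00000015718, just outside at a mean of 9.67 counts, lay at 0.135 to 1.24 and 0.248 to 2.8 CPM. In total 162 regions sat exactly at 10 counts, and 1707 of the 10885 had a mean under 10 in Btbd7 KO.

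In the clone mean against Btbd7 KO, 10.7% of 6893 enhancers chosen by the same minimum were higher and 5.21% lower, beside 12.5% and 3.92% of all enhancers tested. Of 8496 CTCF sites chosen likewise, 5.41% were higher and 4.21% lower, beside 7.79% and 2.83% of all tested. The promoter flanking regions had 14.7% and 5.87%, and the difference between the classes was not tested.

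Of 21 genes listed for the nuclear exosome targeting complex, its poly(A)-dependent counterpart, cap-binding adaptors and the RNA exosome, 10, the edited Zcchc8 among them, were lower in the clone mean than in wild type and 1 was higher (backgrounds 19.9% and 16.2%), at a median log2 change of -0.17. Without TMM factors 6 were lower and 2 higher. Mtrex fell by 0.275 on the log2 scale (edgeR adjusted p = 2.89e-05), and Srrt, the cap-binding adaptor ARS2, rose by 0.49 (adjusted p = 7.80e-09). Srrt was called in each clone, but the 10 lower genes were not all so. Mtrex was not called in clone 2 (adjusted p = 0.194). Rbm7 was called only in clone 2 (0.283, 0.01 and 0.058 in clones 1, 2 and 3).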

How the data were processed

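Total RNA from SIMS cells was sequenced from stranded libraries, per the labels' protocols. The authors deposited raw counts per gene and per regulatory region. Per the submitters' processing notes, STAR 2.7.3a and FastQC were used; the counter, the genome build and the strand setting are not given in the sources used here. The members, gene lists and tests were chosen with earlier results of these data known.

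Region counts were tested with edgeR 4.0.16 (R 4.3.3; glmQLFit and glmQLFTest) over 19 libraries, with filterByExpr by group and Benjamini-Hochberg adjustment over all 14082 tested regions; a call is an adjusted p under 0.05. Of the 10885 regions, 69 did not pass the filter. Library sizes and TMM factors came from all rows of the 20-library gene table. Genes were tested in the same way over those 20 libraries, which include wild-type replicate 1, with adjustment over 15297 tested genes. Other versions of these factors (19 libraries, filtered genes) were computed first, one of them was at first preferred because it gave the counts of an earlier analysis, and the factors described here were restored after the counts had been seen; all versions are among the alternatives. CPM values use the TMM-scaled gene totals, and 0.5 was added where log2 CPM is plotted. Standard errors come from the quasi-likelihood F. The joint test asks whether the 3 clones are equal. Scripts were tested on simulated data.

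Regions named in the text had a mean of at least 50 counts over the libraries, except the most abundant and the threshold ones: the 10 largest rises and 6 largest falls against Btbd7 KO among regions called in each clone against wild type, called in the clone mean against Btbd7 KO and not called in Btbd7 KO; the 5 most abundant; the 4 with the lowest joint p; and 2 in each direction in Btbd7 KO. Count matches within 5% were searched in the gene and PROMPT tables. Gene positions are from GENCODE M21 (GRCm38). Same-numbered replicates did not deviate together (36 pairs, r -0.0747 to 0.0842), so the numbers were not treated as pairs. The alternatives were other scalings and filters, DESeq2 1.42.0, only the groups compared, thinning to equal depth, a replicate block, members chosen by Btbd7 KO, and each library left out. Counts limit the precision, and open chromatin, promoter and transcription factor site tables were not used.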

Additional observations from a re-analysis of the deposited data

Results flagged for a closer look

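Among 120 groups of 4 libraries, 5 had 1 library far from the other 3, and chance flags about 1 in 20 such groups. ENSMUSR00000361113 was at 7.5 CPM in clone 3 replicate 4 against 5.13 to 5.52 in the others. ENSMUSR00000008146 was at 60.9 CPM in clone 2 replicate 4 against 52.4 to 52.8. ENSMUSR00000560947 was at 109.6 CPM in Btbd7 KO replicate 4 against 116.9 to 118.1. ENSMUSR00000610676 was at 1673.1 CPM in clone 1 replicate 4 against 1451.3 to 1487.2. ENSMUSR00000607335 was at 565.1 CPM in clone 2 replicate 3 against 604.6 to 610.6.

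Of the 29 regions named, 4 were picked for the lowest joint p and 5 for abundance, so a share of them says nothing about the regions as a whole. The change against wild type differed among the 3 Zcchc8 KO clones at 17 of the 29, beside 7.44% of all tested regions (edgeR joint test, adjusted p). Among rising regions these were ENSMUSR00000717406 (0.000354), ENSMUSR00000573828 (0.00414), ENSMUSR00000008162 (0.0201) and ENSMUSR00000008146 (1.19e-08). Among falling regions they were ENSMUSR00000267905 (1.76e-05) and ENSMUSR00000560947 (3.59e-07). Among the abundant regions they were ENSMUSR00000610676 (0.00148), ENSMUSR00000607335 (0.00264), ENSMUSR00000713939 (0.0152) and ENSMUSR00000682732 (3.28e-15). Those named for this difference were ENSMUSR00000496199 (3.27e-35), ENSMUSR00000038700 (6.37e-30), ENSMUSR00000587611 (7.48e-27) and ENSMUSR00000038705 (4.33e-26). Of the regions named for Btbd7 KO, ENSMUSR00000548442 (1.45e-12), ENSMUSR00000619315 (2.65e-22) and ENSMUSR00000326324 (0.0124) differed. In all of these the clone is 1 line, and the cause of the difference was not tested.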

How the results depend on the processing

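Scaling moved the results most. With TMM factors from the region table itself, lower counts became 758, 522 and 595 in clones 1, 2 and 3 against wild type and 829 in the clone mean, and Btbd7 KO had 115 higher and 74 lower. Against Btbd7 KO the same setting gave 979 higher and 1418 lower in the clone mean, 823 and 1207 in clone 1, 868 and 991 in clone 2 and 798 and 996 in clone 3. It gave 140 regions lower in each clone and 125 with all clones below the controls. It turned ENSMUSR00000610676 to -0.0745 and brought ENSMUSR00000607335 (-0.24) and ENSMUSR00000713939 (-0.21) past the threshold. Without TMM factors, lower counts were 225 in clone 2 and 245 in the clone mean against wild type, 34 in each clone and 23 without overlap, and ENSMUSR00000607335 turned to 0.0307 and ENSMUSR00000713939 to 0.0673. ENSMUSR00000713939, near 0, also turned to 0.0233 in DESeq2 and to 0.00498, 0.00288 and 0.0118 with factors from 19 libraries, 19 libraries with filtered genes and 20 libraries with filtered genes. These 3 were added after seeing the data and left every count within 1.5 times, as was the choice of members by Btbd7 KO for the libraries that do not overlap (298 above, 47 below). Fitting only the groups compared gave 227 lower in clone 2 and 94 lower in Btbd7 KO, and equal depth gave 88 lower in Btbd7 KO. ENSMUSR00000079190 lost its call in DESeq2 (1.34, adjusted p = 0.0692). The cause of these shifts was not tested.

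Leaving out single libraries gave 44 to 76 higher and 88 to 158 lower in Btbd7 KO, 0.11 to 0.15 for ENSMUSR00000610676, 0.87 to 1.76 for ENSMUSR00000079190 and -0.0252 to 0.0144 for ENSMUSR00000713939, which was positive without 5 libraries. The regions counted per 1000 gene counts were 82.3 in wild type with members chosen by Btbd7 KO, and 78.1, 75.5, 83.2, 83.4 and 84.2 in wild type, Btbd7 KO and clones 1 to 3 without the 10 most abundant. With TMM-scaled gene totals, added after seeing the data, they were 86.1, 83.0, 87.1, 86.3 and 87.6, and the groups then overlapped. With the replicate number as a block, which does not pair these samples, 1569 were higher and 632 lower in the clone mean against Btbd7 KO, and no count moved by over 1.5 times; 6 of 19 libraries correlated best with their own number. Low counts limit what can be seen, since 3124 regions had under 20 wild-type counts and clone 1 was the shallowest line.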

Other observations

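The log2 changes of regions with neighbouring identifier numbers were more alike than those of distant ones. Between consecutive tested regions 1 to 3 numbers apart, the log2 changes of the clone mean against Btbd7 KO had a Pearson r of 0.417 (2476 pairs), which was 0.253 at 4 to 10 numbers (2405 pairs), 0.17 at 11 to 30 (2122 pairs) and 0.0516 at 101 to 1000 (1828 pairs). The pairs share all libraries and are not independent, and the files do not say that close numbers mean close positions.

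Several regions matched a gene row closely instead of a PROMPT row. ENSMUSR00000116872 differed from the gene row of Mt1, a metallothionein (chromosome 8, 94179082 to 94180327, GRCm38), by 0.244% of counts and had a log2 change of 0.09 against Btbd7 KO (adjusted p = 0.368). ENSMUSR00000314968 differed from Inafm2 (chromosome 2, 118745758 to 118748810) by 0.225%, with a change of -0.11 (adjusted p = 0.397). ENSMUSR00000241863 differed from Pbx2, a homeobox gene (chromosome 17, 34591266 to 34597400), by 1.63% and was higher by 0.30 (adjusted p = 0.00312). These matches were singled out after their values were seen.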
